A study of Mus musculus with 2 samples.

Results

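The mir-130/mir-301 family of the embryonic mouse heart consists of 4 microRNA genes, Mir130a, Mir130b, Mir301 (also named Mir301a) and Mir301b. They were found by their GENCODE M21 symbols, and the 4 rows were drawn from 1973 gene rows in each table. All libraries formed 1 group, hearts of the mouse strain B6NCrl at embryonic day 12.5 (E12.5) with male and female embryos pooled and no treatment named. There were 2 biological replicates with 1 library each, both listed under the same strain donor record. The design held no contrast between conditions, so the family is described by its levels, by the differences among its members and by the match between the libraries.

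A microRNA is cut from a hairpin, and one arm of that hairpin is loaded into Argonaute, where bases 2 to 8, the seed, select the messages that are repressed. Genes with the same seed are grouped as a family because they can bind the same sites. The mir-130/mir-301 family is known from the vasculature: in human endothelial cells miR-130a represses the antiangiogenic homeobox genes GAX and HOXA5, and the family is linked to pulmonary hypertension through the nuclear receptor PPARG. In the mouse heart, miR-130a is known to repress Fog2, a cofactor of the GATA transcription factors that is needed for heart development.

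The sequences below show what makes these genes a family. They are credited to RefSeq on GRCm38.p6, which held all 4 hairpins, 4 mature 5p arms and 3 mature 3p arms. The mature 3p arms are given from 5′ to 3′ with the seed in capitals.
miR-130a-3p: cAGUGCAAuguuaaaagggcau
miR-130b-3p: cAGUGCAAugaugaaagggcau
miR-301a-3p: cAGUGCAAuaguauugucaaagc

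The whole hairpins, that of Mir301b included, show where the 3p seed sits in each gene, with the same 7 letters, AGUGCAA, in capitals wherever a search found them on the hairpin's own strand.
Mir130a hairpin: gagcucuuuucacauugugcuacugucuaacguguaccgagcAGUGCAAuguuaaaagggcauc
Mir130b hairpin: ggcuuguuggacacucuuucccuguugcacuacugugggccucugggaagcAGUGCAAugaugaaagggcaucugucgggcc
Mir301 hairpin: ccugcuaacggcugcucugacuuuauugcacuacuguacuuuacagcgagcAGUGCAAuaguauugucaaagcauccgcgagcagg
Mir301b hairpin: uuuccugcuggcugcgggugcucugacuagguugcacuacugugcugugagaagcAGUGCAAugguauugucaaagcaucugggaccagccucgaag

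The shared part of the 3p arms runs past the seed. All 3 listed 3p arms begin with the same 9 bases, CAGUGCAAU, and this string was found in 4 of 4 family hairpins and in 8 of 1005 hairpins of the table (0.796%). The seed AGUGCAA alone was found in 12 of the 1005 (1.19%). Beyond the shared start, miR-130a-3p and miR-130b-3p differed at 2 of 22 positions, U11A and A13G, counted from 1 at the 5′ end with the base of miR-130a first. The first 22 bases of miR-301a-3p differed from miR-130a-3p at 10 positions and from miR-130b-3p at 11. The listed 3p arms thus fell into a closely matching pair, that of miR-130a and miR-130b, and the sequence of miR-301a, which shares mainly the seed end. This does not set miR-301a apart within the family. The 3p arm of Mir301b is not listed, and its hairpin shares a stretch of 16 bases with that of Mir301. After CAGUGCAAU, the Mir301b hairpin has a G where miR-301a-3p has an A. It then runs on with the same bases to the end of that arm.

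The 5p arms are shown because they hold the partner strand of the seed, the reverse complement UUGCACU, in capitals where it was found.
miR-130a-5p: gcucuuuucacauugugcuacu
miR-130b-5p: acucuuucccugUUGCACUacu
miR-301a-5p: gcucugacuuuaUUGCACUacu
miR-301b-5p: gcucugacuaggUUGCACUacu

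The reverse complement stood at bases 13 to 19 in 3 of 4 of the 5p arms, and it was in 14 of 1005 hairpins (1.39%, own strand only). At the same place miR-130a-5p differed by 2 bases, which are U16C and G17A when it is compared with miR-130b-5p. The 5p arms of Mir301 and Mir301b differed from each other at 3 of 22 positions, while the 5p arms of Mir130a and Mir130b differed at 7. The 5p arms of the neighbours Mir130b and Mir301b differed at 6 positions.

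The members lie at 3 places in the genome (mm10, GENCODE M21). Mir130a (ENSMUSG00000065484.1) is on the minus strand of chromosome 2, spanning bases 84741115 to 84741178, and overlaps no other annotated gene. The nearest are Gm19426, 990 bases away on the same strand, and Ypel4, 2459 bases away on the opposite strand. Mir301 (ENSMUSG00000065589.1) is on the plus strand of chromosome 11, spanning bases 87113004 to 87113089, in an intron of both Ska2 transcripts that span it. Ska2 encodes a protein of the spindle and kinetochore. Mir130b (ENSMUSG00000065572.1) spans bases 17124061 to 17124142 of chromosome 16 and Mir301b (ENSMUSG00000076288.1) bases 17124400 to 17124496, both on the minus strand. These neighbours are 257 bases apart, and both fall in introns of the 3 transcripts of 2610318N02Rik that span them.

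The tables hold raw counts of reads per hairpin, so the 2 arms of a gene are not separated, and levels are given as CPM, sense counts scaled so that all microRNA genes of a library sum to 1000000. The 2 libraries held 5279908 sense counts in replicate 2 and 4478599 in replicate 1, out of 10601121 and 9235580 reads. Ranges in brackets are exact Poisson or binomial 95% intervals, which cover counting error only, as the labels name no molecular identifiers. The cardiomyocyte microRNAs Mir208a, Mir208b and Mir499 were present together at 6.19% and 6.40% of the counts in replicates 2 and 1. Mir1a-1 and Mir133a-2, other microRNAs of heart muscle, had only 4.74 and 1.52 CPM in replicate 2 and 2.46 and 0.447 CPM in replicate 1. In each, a run of 22 bases is repeated in at least 1 further microRNA gene. Multi-mapping reads are tallied apart from the genes, so the ranks and shares below leave out reads that such copies have in common. Genes listed as markers of other cell types were also present, with smooth muscle markers at 9.05% and 8.88% and the endothelial Mir126a at 6.88% and 6.70%. Mir143 made up nearly all of the smooth muscle sum, at 89222 and 87662 CPM, against 1277.5 and 1129.6 CPM for Mir145a. Whether Mir143 was confined to smooth muscle at this age was not tested. Liver markers summed to 0.0122% and 0.0265%, erythroid markers to 0.181% and 0.0926%, epithelial markers to 0.101% and 0.104%, and white blood cell markers to 0.0331% and 0.0318%. Of 5 neural markers in the tables, 3 were at 0 in both libraries, but each of the 5 has a run of 22 bases that a further microRNA gene repeats, so their counts say little about neural cells. In whole hearts, a lower level in every cell and a smaller number of expressing cells cannot be told apart.

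All 4 members were measured in both libraries, at levels that spanned more than 2 orders of magnitude. Together they took 2.44% of the sense counts in replicate 2 and 2.36% in replicate 1, a sum of 23959 ± 558 CPM (SD, n = 2). Mir130a alone held 76.9% ± 0.551 of the family's counts, Mir130b 17.6% ± 0.334, Mir301 5.23% ± 0.857 and Mir301b 0.312% ± 0.0279 (SD, n = 2 each). The family's counts in the E12.5 heart were thus mainly those of a single gene, and Mir130a and Mir130b outweighed Mir301 and Mir301b.

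Mir130a had 98370 counts in replicate 2 and 81557 in replicate 1. These made 18631 CPM (18515 to 18748) and 18210 CPM (18086 to 18336), a mean of 18421 ± 297 CPM (SD, n = 2). It stood 12th of all genes in replicate 2 and 15th in replicate 1, far below the most abundant gene, Mir335, at 127503 and 119219 CPM.

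Mir130b had 22288 counts in replicate 2 and 18791 in replicate 1, or 4221 CPM (4166 to 4277) and 4196 CPM (4136 to 4256). Its mean was 4209 ± 18.1 CPM (SD, n = 2), and it ranked 35th in both libraries. Of the 4 members it differed least between the libraries, and its counting intervals overlapped.

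Mir301 had 7504 counts in replicate 2 and 4880 in replicate 1, or 1421 CPM (1389 to 1454) and 1090 CPM (1059 to 1121). Its mean was 1255 ± 234 CPM (SD, n = 2), at ranks 73 and 77. Of the members, it varied most between the libraries, with an SD of 18.7% of the mean.

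Mir301b had 426 counts in replicate 2 and 308 in replicate 1, or 80.7 CPM (73.2 to 88.7) and 68.8 CPM (61.3 to 76.9). Its mean was 74.7 ± 8.42 CPM (SD, n = 2), at ranks 190 and 200. Although lowest of the family, it was well above the limit taken for a count of 0, 3 counts, which is 0.568 CPM for replicate 2 and 0.670 CPM for replicate 1, and was among the 284 genes with at least 10 CPM in both libraries.

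**Figure D1:**
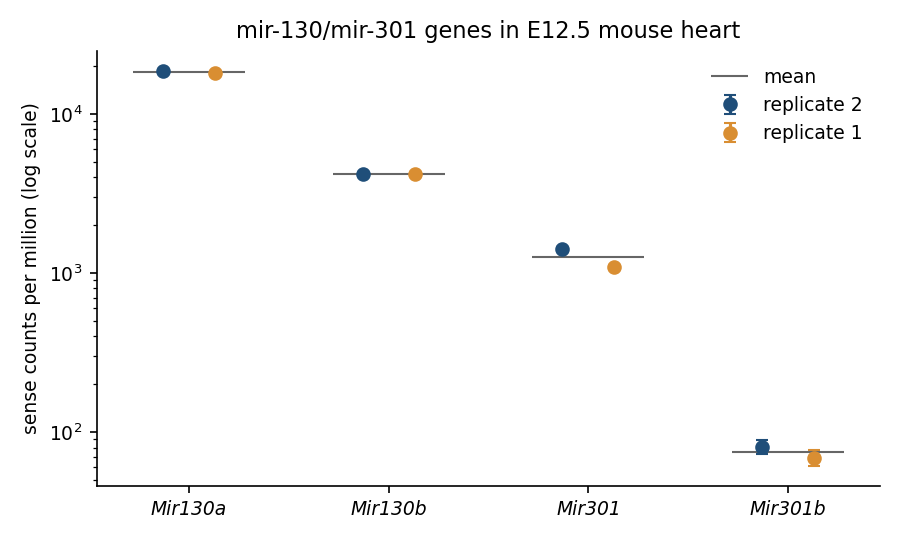
Level of each mir-130/mir-301 gene in the E12.5 heart, as CPM on a log scale, for replicate 2 and replicate 1, with exact Poisson 95% intervals (bars, often smaller than the points) and the mean of the 2 libraries (line). The levels step down from Mir130a at 18421 CPM to Mir301b at 74.7 CPM, and no member's values overlap those of another.

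In the plot of levels by library, the order Mir130a, Mir130b, Mir301, Mir301b held in both replicates. Of 6 pairs of members, 6 had values that did not overlap between the 2 genes. The share over all pairs of genes was not computed, so this count cannot be called a trait of the family. The closest pair was Mir130b and Mir301, with a ratio of 2.97 (2.89 to 3.05) in replicate 2 and 3.85 (3.73 to 3.97) in replicate 1. The ratio of Mir130a to Mir130b was steadier, at 4.41 (4.35 to 4.48) and 4.34 (4.27 to 4.41), an SD of 1.19% of the mean ratio. Mir130a exceeded Mir301 by a ratio of 14.9 ± 2.55 and Mir301b by a ratio of 248 ± 24.0 (SD, n = 2 each). Per 100 bases of hairpin, the ratio of Mir130a to Mir301b was 376, since the annotated hairpins are 64 and 97 bases long. The order per length was the same. With 2 libraries no test of these ratios was made, but each was further from 1 than the libraries were from each other. They are ratios of reads. Whether all sequences were captured equally well was not tested, here or in the comparisons of families below.

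**Figure D2:**
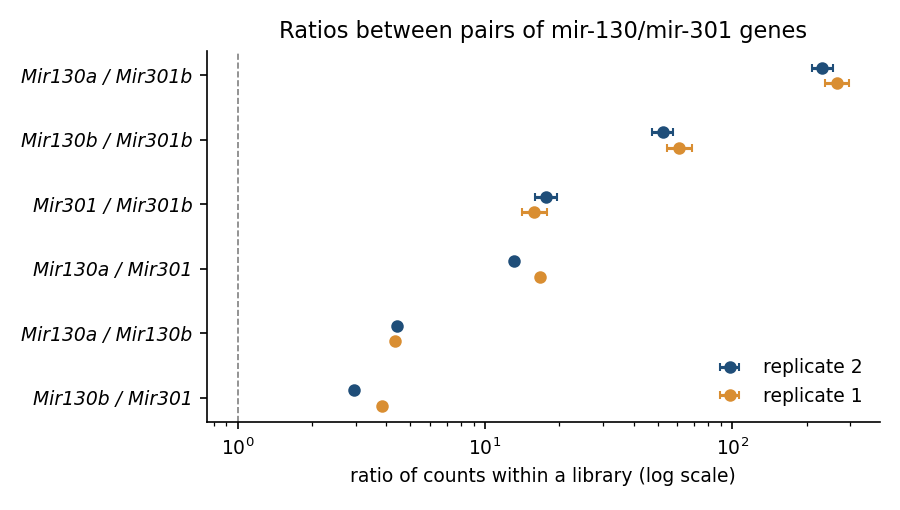
Ratio of counts between the genes of each of the 6 pairs within replicate 2 and within replicate 1, on a log scale, with exact 95% counting intervals (bars) and a dashed line at a ratio of 1. Every pair lies to the right of that line, from Mir130b over Mir301 near 3.41 to Mir130a over Mir301b near 248, and the 2 libraries differ most for Mir130b over Mir301 and Mir130a over Mir301.

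The clustered neighbours Mir130b and Mir301b stood far apart. Within a library, Mir130b exceeded Mir301b by a ratio of 52.3 (47.5 to 57.7) in replicate 2 and 61.0 (54.5 to 68.5) in replicate 1, or 5.82 log2 units between the means. To place this value, adjacent microRNA genes on 1 strand were collected where at most 1000 bases separated them and each had at least 10 counts in total. The 75 such pairs differed by a median of 2.93 log2 units, with a minimum of 0.05 and a maximum of 10.62. Of them, 13 (17.3%) differed by as much as Mir130b and Mir301b or more, that pair included. Wide gaps between neighbours were therefore common in these counts, and this pair lay in the upper part of that range. The other pairs were not screened for genes with copies elsewhere, whose common reads are left out of the counts. How far this widened their gaps, and so the place of this pair, was not tested. The genes Mir301 and Mir301b, on different chromosomes, also differed, with Mir301 above Mir301b by a ratio of 17.6 (16.0 to 19.5) in replicate 2 and 15.8 (14.1 to 17.8) in replicate 1.

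Since multi-mapping reads are tallied apart, each hairpin was compared with the other microRNA transcripts of GENCODE M21, on both strands. Among 2202 transcripts, none shared a stretch of 22 bases, about the length of a mature arm, with a member other than itself. The longest shared stretch was 17 bases for Mir130a, with Mir6389, and 16 bases for Mir130b, with Mir6368. Mir301 and Mir301b shared 16 bases with each other. Copies outside microRNA genes were not looked for. Whether reads with sequencing errors were counted to the wrong one of Mir130a and Mir130b, or of Mir301 and Mir301b, was not tested. Over the length of miR-301a-3p, the Mir301b hairpin differs only by a G in place of an A. The split of reads between Mir301 and Mir301b is therefore uncertain, and so are the ratios to Mir301b. Antisense counts at the members were 0 in both libraries, apart from 3 at Mir130a in replicate 1.

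Other genes with the seed AGUGCAA in the tables added no counts. The table of mature sequences held 4 such genes, shown here for the bases after the seed.
miR-130c: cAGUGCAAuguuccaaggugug
miR-6341: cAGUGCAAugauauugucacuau
miR-6389: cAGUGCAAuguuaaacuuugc
miR-721: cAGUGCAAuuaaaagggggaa

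Mir130c, Mir6341 and Mir6389 had 0 counts in both libraries, for which the limit taken is 0.568 CPM in replicate 2 and 0.670 CPM in replicate 1. Mir721 was not found among the gene rows by symbol, synonym or position, so it was not analysed here. Among the 7 genes of this seed in the tables, the 4 members thus held all counts.

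The family stood in the upper part of the ranking, as its rank plot shows. Mir130a and its neighbours in mean level could not be put in order, as the values overlapped: Mirlet7i, next above, had 18176 and 18829 CPM in replicates 2 and 1, and Mir99b, next below, had 17358 and 18300 CPM. Mir130b was set apart from both its neighbours, Mir106b above at 4469 and 4685 CPM and Mir342 below at 4121 and 3310 CPM. Mir301 overlapped with Mir27b above (1372 and 1241 CPM) and Mir451a below (1671 and 769.7 CPM). Mir301b overlapped with Mir495 and Mir410, which lay within 0.01 log2 units of it in mean level. These are the genes most like each member by distance in mean level over 2 libraries of 1 tissue, a likeness that says nothing of other tissues.

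**Figure D3:**
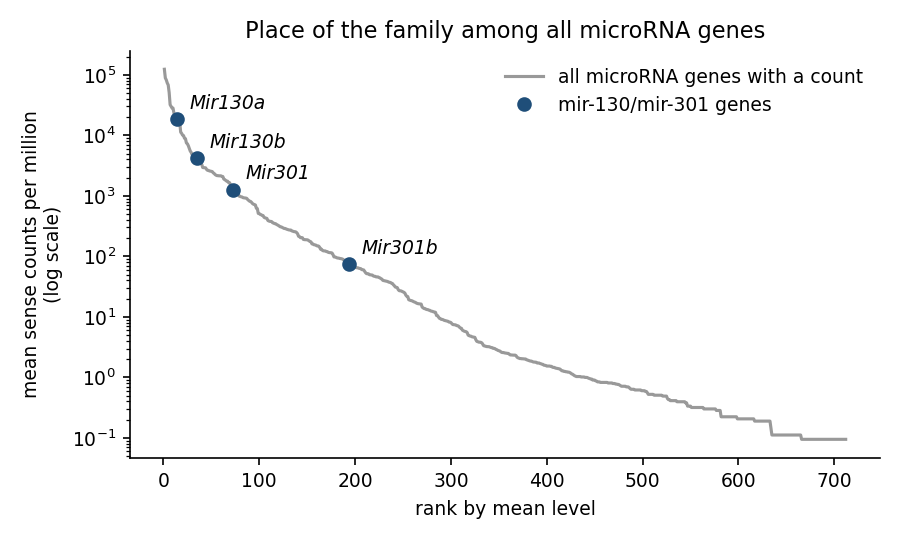
Mean level of the 711 microRNA genes with a symbol and a count (grey line, CPM on a log scale) against their rank, with the mir-130/mir-301 genes as points. The members lie at ranks 14, 35, 73 and 194 by mean level, spread along the upper part of the curve.

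Between the libraries, Mir130a and Mir130b matched closely, and Mir301 and Mir301b were higher in replicate 2. The log2 ratio of replicate 2 to replicate 1 was 0.03 for Mir130a, 0.01 for Mir130b, 0.38 for Mir301 and 0.23 for Mir301b. For Mir301 the ratio was 1.30, with a 95% counting interval of 1.26 to 1.35. For Mir301b it was 1.17 (1.01 to 1.36), so at 426 and 308 counts the interval nearly reached 1. Of the 4 members, 0 differed 2-fold, where 5.63% of 444 genes with 10 counts or more in total did (3.15% higher and 2.48% lower in replicate 2). The counting interval left out 1 for 3 members, all higher in replicate 2, against 35.6% of the same genes in either direction, made up of 16.2% higher and 19.4% lower in replicate 2. For the 214 genes that reached 500 counts in total, that share was 60.3%. The interval therefore marks differences beyond counting error, not beyond the spread between hearts. Of these 214 genes, 12 (5.61%), Mir301 included, lay at least as far from a ratio of 1 as Mir301 did. The median log2 ratio was 0.13 over the 4 members and 0.00 over the 444 genes.

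**Figure D4:**
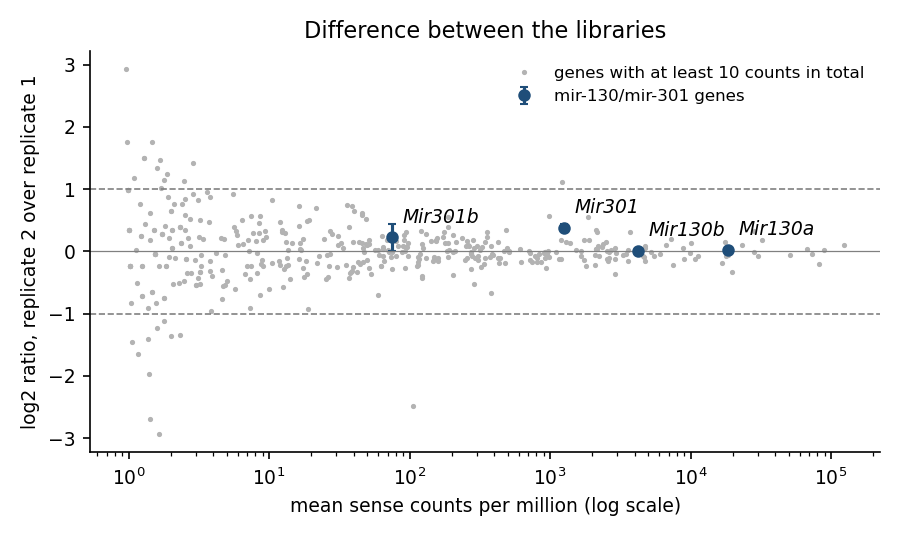
Log2 ratio of replicate 2 to replicate 1 against mean CPM (log scale) for genes with 10 counts or more in total and a count in each library (grey) and for the mir-130/mir-301 genes (points with 95% counting intervals). Dashed lines mark 2-fold. All 4 members lie inside them, with Mir301 highest at 0.38.

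Single markers of other cells also differed between the libraries, and their lists did not move as a whole. The erythroid sum was 1811 CPM in replicate 2 against 925.5 CPM in replicate 1. It followed Mir451a, at 1671 against 769.7 CPM, while Mir144 had 139.8 against 155.9 CPM. The liver sum was 122 CPM in replicate 2 against 264.8 CPM in replicate 1. It followed Mir122, at 32.4 against 180.6 CPM, while Mir192 had 47.4 against 52.0 CPM and Mir194-1 had 42.2 against 32.2 CPM. Their part in the differences of Mir301 and Mir301b was not tested.

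The mir-148/mir-152 family was compared because its seed lies 1 base off. Its 3p arms are shown with their seed in capitals.
miR-148a-3p: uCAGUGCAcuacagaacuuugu
miR-148b-3p: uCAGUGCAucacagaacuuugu
miR-152-3p: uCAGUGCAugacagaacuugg

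The seed CAGUGCA of these arms stands at bases 1 to 7 of the listed mir-130/mir-301 arms, where it is read from base 1 instead of base 2. It was found in 22 of 1005 hairpins (2.19%, own strand). The mir-130/mir-301 family reached a sum of 24354 and 23565 CPM in replicates 2 and 1, against 1255 and 1252 CPM for the mir-148/mir-152 family. The leading gene took 76.9% ± 0.551 of the counts in the mir-130/mir-301 family and 73.2% ± 0.393 in the mir-148/mir-152 family, where it was Mir148a (SD, n = 2 each). The members of the mir-130/mir-301 family were spread more widely, with a ratio of 248 ± 24.0 from the highest to the lowest, against 6.19 ± 0.263 from Mir148a to Mir152 (SD, n = 2 each). Mir148a, at 917 ± 3.05 CPM (SD, n = 2), lay below Mir130a, Mir130b and Mir301 in both libraries and above Mir301b.

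The mir-17 seed family, with 6 genes in the tables and 5p arms such as that of Mir17, served as a further family with 1 seed.
miR-17-5p: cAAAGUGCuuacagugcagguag

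The summed level of the mir-130/mir-301 family was 23959 ± 558 CPM, against 43984 ± 1976 CPM for the mir-17 seed family (SD, n = 2 each), and the values did not overlap. Mir130a held 76.9% ± 0.551 of its family, while Mir17, at 23223 ± 1149 CPM, held 52.8% ± 0.242 (SD, n = 2 each). From highest to lowest gene, the ratio was 248 ± 24.0 in the mir-130/mir-301 family and 470 ± 2.06 in the mir-17 seed family, from Mir17 to Mir20b (SD, n = 2 each). A steep fall from the first to the last gene was thus seen in both, while the lead of a single gene was larger in the mir-130/mir-301 family in both libraries. The 5p arms of Mir17 and Mir106a differ at 1 of 23 positions, so the split of reads between them is uncertain. No test was made of these differences between families, which hold different numbers of genes.

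**Figure D5:**
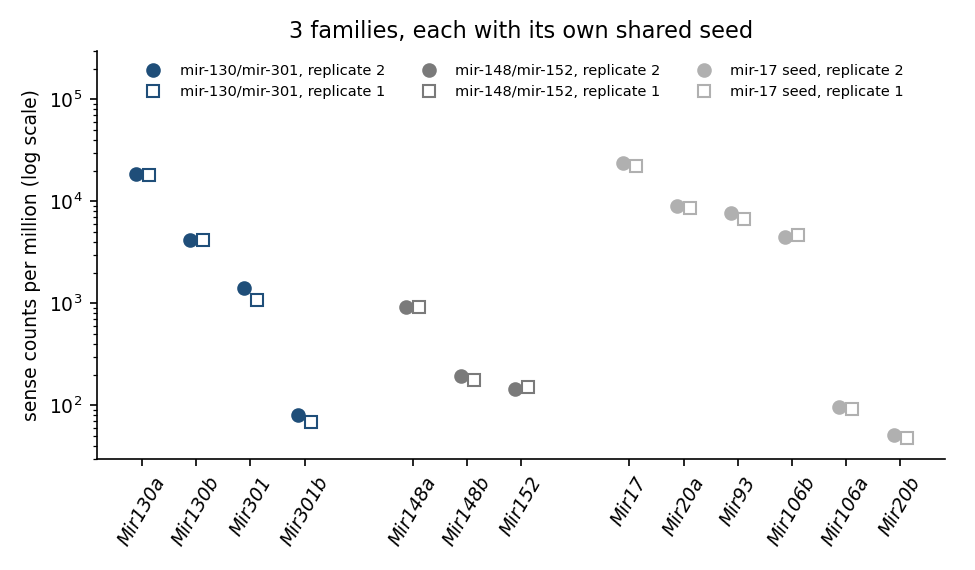
Level in CPM (log scale) of each gene in the mir-130/mir-301, mir-148/mir-152 and mir-17 seed families, in replicate 2 (filled circles) and replicate 1 (open squares), ordered by mean level within a family. Mir130a, at 18421 CPM on average, lies between Mir17 at 23223 CPM and Mir20a at 8792 CPM, and Mir301b, at 74.7 CPM, lies below all mir-148/mir-152 genes.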

How the data were processed

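MicroRNA-sized RNA of E12.5 mouse heart was sequenced in 2 libraries, 1 per biological replicate. The authors deposited raw read counts for each microRNA gene, 1 table per library without pooling, on mm10 with annotation M4, per the file headers and labels. Which aligner and counting tool made them is not given in the sources used here. The 3 unnamed count columns were read from their values as counts without regard to strand, sense counts and antisense counts, and sense counts were used. Rows that name no gene were left out of library sizes: in replicate 2, multi-mapping reads were 25.3% of all reads, unmapped reads 19.1% and reads sense to no microRNA gene 5.88%, and in replicate 1 these were 27.1%, 18.1% and 6.29%. The last share includes reads antisense to a microRNA gene, 2.16% of all reads in replicate 2 and 2.35% in replicate 1.

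Symbols came from GENCODE M21 (GRCm38, the assembly also called mm10), which matched 1894 of 1973 rows, and sequences from RefSeq on GRCm38.p6. The M21 and RefSeq hairpins of all 4 members were identical. CPM was computed over all sense gene counts. Ratios carry exact conditional binomial 95% intervals, and the limit for a count of 0 is 3 counts. The comparison of libraries used genes with at least 10 counts in total and was checked on simulated data. The simulated data were Poisson counts, as the intervals assume, so this checked the computation and not the spread between hearts. As 1 group of 2 libraries allows no test between conditions, no p-value was computed. Alternatives used TMM from edgeR 4.0.16, DESeq2 1.42.0 size factors (R 4.3.3), other denominators, the other strand column, hairpin length and each replicate alone. Other steps used Python 3.11.15, numpy 2.4.6, pandas 2.3.3, scipy 1.17.1 and matplotlib 3.10.9.

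The members, comparison families and markers were chosen with earlier results of these data known. Genes named are the members, genes with their 3p seed, the mir-148/mir-152 and mir-17 seed families, the next gene above and below each member in mean level, the most abundant gene, overlapping genes and cell type markers. The set of adjacent pairs, the minimum of 500 counts and the nearest genes of Mir130a were chosen after the values were seen.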

Additional observations from a re-analysis of the deposited data

Results flagged for a closer look

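Reads that fit several places lay outside all counts used and made up 26.2% of all reads on average, far above the limit that a count of 0 allows. The tables do not say which genes they came from, and whether any came from the mir-130/mir-301 genes was not tested. With 2 libraries in 1 group, no search for single outlying libraries was made.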

How the results depend on the processing

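The order of the 4 members was the same with counts regardless of strand, per 100 bases of hairpin and in each library alone. The summed family level of 23959 CPM was 22909 with counts regardless of strand, 11778 over all reads and 27334 without Mir335 in the denominator. These settings multiplied the level of every member by 0.956, 0.492 and 1.14. TMM and DESeq2 scaling moved the sum by less than 1 SD. As their factors balance each other over 2 libraries, a mean could hardly move, so this says little. The sum was 23565 to 24354 CPM in single libraries. Per 100 bases of hairpin, a scale set by the annotated length alone, the share of Mir130a was 81.2%. Its ratios were then 5.61 to Mir130b, 20.0 to Mir301 and 376 to Mir301b. On that scale Mir130b exceeded Mir301b by a ratio of 67.0 and Mir301 exceeded Mir301b by 18.9. In single libraries the share of Mir130a was 76.5% to 77.3%. The ratio of Mir130a was 4.34 to 4.41 to Mir130b, 13.1 to 16.7 to Mir301 and 231 to 265 to Mir301b. That of Mir130b was 2.97 to 3.85 to Mir301 and 52.3 to 61.0 to Mir301b, and that of Mir301 to Mir301b 15.8 to 17.6. The log2 ratio between libraries stayed within 0.03 to 0.07 for Mir130a, 0.01 to 0.05 for Mir130b, 0.38 to 0.42 for Mir301 and 0.23 to 0.27 for Mir301b. With the filter on low counts replaced by a count in both libraries, 76 of 586 genes differed 2-fold, against 25 of 444, as genes with few counts were added. With TMM scaling and the filter kept, 28 did. No paired analysis was possible because all samples form 1 group. Depth limited Mir301b most, as its 426 and 308 counts set the width of its intervals.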
